A study of Mus musculus with 28 samples.

Results

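Trimethylation of lysine 4 on histone H3 (H3K4me3) was compared across the genome between Smchd1 null and wild-type neural stem cells. The comparison used 4 of the 28 libraries of the study, 2 for each genotype, and was taken from the summit lists that the authors called at a threshold of 5e-4. The null cells carried the MommeD1 null allele on both copies of Smchd1 (Smchd1MommeD1/MommeD1). The wild-type cells carried the intact gene. Both came from brains of male E14.5 embryos on a C57BL/6 x FVB/N background and were grown as adherent cultures with EGF and bFGF, and the same lot of a Millipore antibody was used for all 4 libraries. The authors pooled the 2 libraries of a genotype into 1 list and called it against whole cell extract of that genotype, so the lists hold no replicate error. Every difference below is a difference between 2 pooled lists that was not tested against replicate spread, and the depth behind either list is unknown. A culture holds many cells, so a mark on fewer cells and less mark per cell cannot be told apart.

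H3K4me3 is deposited by the SET1 and MLL methyltransferase complexes on nucleosomes around transcription start sites, most of all at CpG-rich promoters, and is recognised there by parts of the transcription machinery. Smchd1 is a non-canonical SMC protein, related to the cohesins and condensins, that takes part in silencing of the inactive X chromosome, of some imprinted genes and of clustered protocadherin genes. In neural stem cells H3K4me3 marks active promoters and, at lower levels, promoters of developmental regulators that Polycomb also holds.

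The null list held 24201 summits on assembled chromosomes and the wild-type list 23449. A summit is the single position of highest signal in a peak, and its score, set by the authors, is −log10 of either p or q, and the sources used here do not say which. The median score was 24.6 in the null list and 26.5 in the wild-type list. The null list had a longer upper tail, with a maximum of 161 and 74 summits above a score of 80, against a maximum of 80.6 and 2 such summits in the wild-type list. Scores grow with sequencing depth as well as with signal, so score ranks within each list were compared in place of scores. Summits lay mostly at promoters: 76.0% of null summits (exact 95% binomial interval 75.4 to 76.5%) and 75.8% of wild-type summits (75.3 to 76.4%) were within 2 kb of an annotated start of a protein-coding gene. These intervals, here and below, cover counting error only and treat neighbouring summits as independent.

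The list labels were checked against markers of neural stem cells. Of 32 such genes, 29 were marked in both lists, where a gene counts as marked when a summit lies within 2 kb of its start, among them Nes, which encodes the intermediate filament nestin, the transcription factor gene Sox2 and the glutamate transporter gene Slc1a3. Here and below, genes of lists with more than 20 members that were marked in both lists are examples chosen after their values were seen. Of the other neural stem cell genes, Emx1 was marked in the null list only, Pax6 in the wild-type list only and 1 in neither. Of all coding genes, 58.8% were marked in the null list and 59.1% in the wild-type list. Also marked in both lists were 23 of 34 neuron, 8 of 14 astrocyte and 9 of 16 oligodendrocyte genes. Marking was thus not particular to neural stem cell genes. Of 18 genes of microglia and blood, 1 was marked in both and 17 in neither. The exception was Spi1, with a score of 15.0 in the null list and 17.4 in the wild-type list. At Smchd1 itself the highest score was 47.5 in the null list and 38.3 in the wild-type list. MommeD1 is a point mutation within the gene, so H3K4me3 at its promoter does not check the genotype.

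The promoter windows of 8 genes show the kinds of start at which the lists differed or did not. Srrm4, a neuronal splicing regulator gene, and Hoxa5, which helps set positional identity, were marked in the null list only. Tusc1, a candidate tumour suppressor gene, Ndn, the imprinted gene of the growth suppressor necdin, and Peg12, a paternally expressed gene related to Frat, were marked in both lists and ranked higher in the null list. Ube3a, an imprinted ubiquitin ligase gene, had a pair of summits with nearly the same score, although its highest score was 35.9 in null and 50.1 in wild type. Abcb9, a lysosomal peptide transporter gene, and Slc6a3, the dopamine transporter gene, were marked in the wild-type list only. Each window runs 5′ to 3′ on the strand of the gene, from 250 bases before to 50 bases after the annotated start, in RefSeq's GRCm38.p6, which is the assembly of mm10. Capitals mark CpG dinucleotides (the letters CG), the target of the CXXC proteins of the methyltransferase complexes.
Srrm4: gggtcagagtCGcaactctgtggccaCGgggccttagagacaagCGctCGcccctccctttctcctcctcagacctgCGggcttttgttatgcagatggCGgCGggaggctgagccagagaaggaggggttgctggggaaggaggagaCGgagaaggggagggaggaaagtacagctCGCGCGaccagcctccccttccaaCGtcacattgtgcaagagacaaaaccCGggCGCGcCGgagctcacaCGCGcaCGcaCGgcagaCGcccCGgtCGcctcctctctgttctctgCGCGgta
Hoxa5: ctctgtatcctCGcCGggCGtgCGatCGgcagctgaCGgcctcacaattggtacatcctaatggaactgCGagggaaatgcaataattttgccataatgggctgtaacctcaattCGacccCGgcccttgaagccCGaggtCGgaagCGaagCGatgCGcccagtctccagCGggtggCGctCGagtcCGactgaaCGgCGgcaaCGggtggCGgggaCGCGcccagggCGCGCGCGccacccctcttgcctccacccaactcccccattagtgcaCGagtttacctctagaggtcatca
Tusc1: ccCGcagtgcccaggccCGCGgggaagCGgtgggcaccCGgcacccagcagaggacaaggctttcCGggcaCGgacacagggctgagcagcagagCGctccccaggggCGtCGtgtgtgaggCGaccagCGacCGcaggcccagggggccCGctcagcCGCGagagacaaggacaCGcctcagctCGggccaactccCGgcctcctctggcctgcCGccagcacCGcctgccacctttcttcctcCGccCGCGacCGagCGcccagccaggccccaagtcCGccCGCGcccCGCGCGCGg
Ndn: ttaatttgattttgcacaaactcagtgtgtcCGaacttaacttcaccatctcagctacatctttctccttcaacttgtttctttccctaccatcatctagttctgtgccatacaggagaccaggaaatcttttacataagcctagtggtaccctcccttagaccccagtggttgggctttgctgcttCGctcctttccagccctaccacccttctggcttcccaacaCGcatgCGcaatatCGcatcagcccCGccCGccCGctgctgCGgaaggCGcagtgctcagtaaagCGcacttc
Peg12: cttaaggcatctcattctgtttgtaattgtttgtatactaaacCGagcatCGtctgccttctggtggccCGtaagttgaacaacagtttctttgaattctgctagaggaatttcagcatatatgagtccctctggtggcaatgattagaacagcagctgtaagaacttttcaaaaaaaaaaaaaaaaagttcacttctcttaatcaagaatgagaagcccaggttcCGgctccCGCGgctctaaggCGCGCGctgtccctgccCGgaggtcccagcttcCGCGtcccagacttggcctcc
Ube3a: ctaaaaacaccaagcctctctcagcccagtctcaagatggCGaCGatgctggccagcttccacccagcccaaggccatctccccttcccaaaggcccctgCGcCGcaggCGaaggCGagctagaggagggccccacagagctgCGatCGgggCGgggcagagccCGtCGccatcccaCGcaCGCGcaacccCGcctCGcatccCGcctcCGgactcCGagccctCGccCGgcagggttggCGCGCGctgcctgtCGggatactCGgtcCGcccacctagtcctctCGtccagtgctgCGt
Abcb9: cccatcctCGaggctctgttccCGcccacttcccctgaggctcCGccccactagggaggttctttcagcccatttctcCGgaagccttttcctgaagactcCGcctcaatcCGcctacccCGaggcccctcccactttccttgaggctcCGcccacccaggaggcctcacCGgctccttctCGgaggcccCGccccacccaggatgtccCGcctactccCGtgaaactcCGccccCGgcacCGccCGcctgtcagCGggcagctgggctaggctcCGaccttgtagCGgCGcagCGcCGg
Slc6a3: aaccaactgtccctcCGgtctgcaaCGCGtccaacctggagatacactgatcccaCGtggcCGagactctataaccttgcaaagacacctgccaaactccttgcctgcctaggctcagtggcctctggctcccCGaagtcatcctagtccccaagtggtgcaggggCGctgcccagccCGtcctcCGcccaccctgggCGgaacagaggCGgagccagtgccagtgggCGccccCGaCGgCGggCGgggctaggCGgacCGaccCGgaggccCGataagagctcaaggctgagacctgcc

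Srrm4 (chr5:116591768-116592067, minus strand) held 25 CpGs in this window, Hoxa5 (chr6:52204538-52204837, minus) 29, Tusc1 (chr4:93335462-93335761, minus) 33, Ube3a (chr7:59228500-59228799, plus) 29, Abcb9 (chr5:124095749-124096048, minus) 23 and Slc6a3 (chr13:73536497-73536796, plus) 20. Ndn (chr7:62348027-62348326, plus) held 11 and Peg12 (chr7:62464461-62464760, minus) held 12. At least 1 CpG is present in 94.8% of the 17491 windows of coding genes, with a median of 13. Genes marked in both lists had the richest windows, with a median of 22 CpGs over 10227 genes. Those marked in the null list only had a median of 12 over 120 genes, those marked in the wild-type list only 13 over 174 genes, and those marked in neither 3 over 6970 genes. An observed to expected CpG ratio of 0.6 or more was found in 37.5% of windows marked in the null list only, in 37.4% of those marked in the wild-type list only and in 77.5% of those marked in both. These 8 genes were chosen with their values known.

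Summits without a counterpart were weak ones in both lists. In the null list 1897 summits (7.84%) had no wild-type summit within 1 kb, and in the wild-type list 1733 (7.39%) had no null summit within 1 kb. The median score of such summits was 6.76 in the null list and 6.68 in the wild-type list, whereas shared summits had medians of 27.2 in the null list and 28.4 in the wild-type list. Below a score of 5, 40.9% of null summits (interval 38.1 to 43.8%) and 37.1% of wild-type summits (34.05 to 40.3%) lacked a counterpart. At a score of 40 or more the shares were 0.716% for null (0.528 to 0.948%) and 0.502% for wild type (0.344 to 0.709%). Only 36.8% of unshared null summits and 32.8% of unshared wild-type summits lay within 2 kb of a coding start, against 79.3% and 79.2% of the shared summits of the null and wild-type lists.

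**Figure D1:**
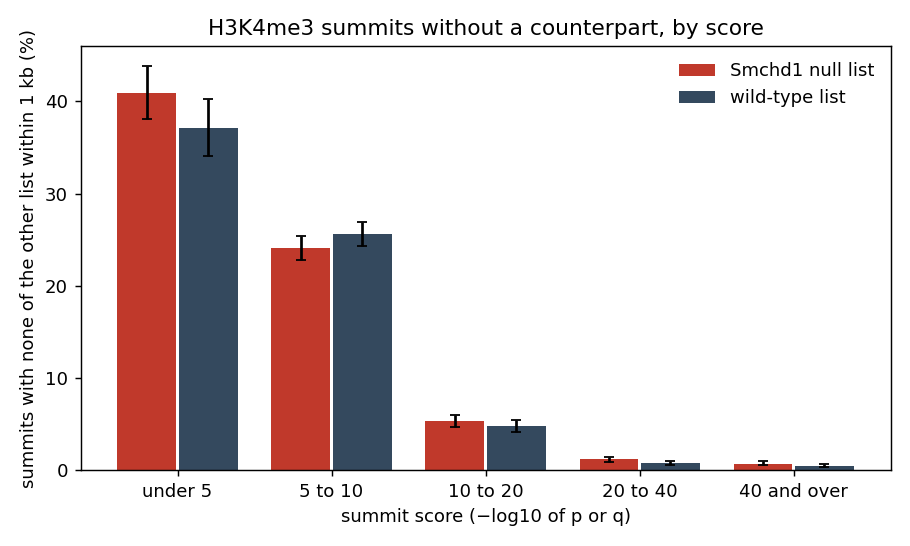
Share of H3K4me3 summits, in percent, left without a counterpart within 1 kb in the other list, by summit score (−log10 of p or q). Red bars stand for the Smchd1 null list, blue bars for the wild-type list, and error bars are exact 95% binomial intervals. The share falls in both lists from 40.9% (null) and 37.1% (wild type) below a score of 5 to under 1% at 40 and over.

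The null list held more runs of neighbouring summits. When summits within 1 kb of their neighbour were chained into runs, the null list formed 17753 runs and the wild-type list 17636. Runs of 3 or more summits numbered 656 in the null list and 408 in the wild-type list. Unshared null summits within 2 kb of a start with known strand lay at a median of 944.5 bp downstream of it (n = 544), and unshared wild-type summits at 204 bp (n = 440). Shared summits lay at a median of 147 bp downstream in the null list and 143 bp in the wild-type list. The most filled 50-bp step was 150 to 200 bp downstream in the null list and 100 to 150 bp in the wild-type list, around the first nucleosome of the gene body. Without a counterpart even within 5 kb were 954 null and 1118 wild-type summits, so the order of the lists turned round at this distance.

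Of the 20 highest null summits without a wild-type summit within 5 kb and with a coding start within 10 kb, 10 lay in the protocadherin clusters on chromosome 18, whose genes encode neuronal adhesion molecules. The others included Srrm4 (score 22.8), Ralyl, which encodes an RNA-binding protein (12.99), the guanine nucleotide exchange factor gene Mcf2 (16.2), the testis gene Tcte1 (12.99), Tmem200c (15.0), Gm38396 (13.7) and 2 summits beside Gm51464 (25.4 and 14.3). Among the 20 highest wild-type ones were the summits at Abcb9 (18.8), at Pabpc5, a poly(A)-binding protein gene on X (16.1), at the alpha-actinin gene Actn2 (14.2), at the non-muscle myosin gene Myh14 (13.7), at Slc6a3 (12.9), at the growth factor gene Fgf1 (12.3), at Fez1, which encodes a kinesin adaptor of axons (13.7), and at the transcription factor gene Ebf2 (12.5). The null summits of this set ran from 12.99 to 42.0 and the wild-type ones from 12.2 to 18.8.

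Over 21883 coding genes, 12866 (58.8%) were marked in the null list and 12931 (59.1%) in the wild-type list. Marked in the null list only were 188 genes, 1.43% of the 13119 marked in at least 1 list, and in the wild-type list only 253 genes, 1.93%. These calls were weak: the median score was 7.65 for genes marked in the null list only and 7.27 for those marked in the wild-type list only, against 40.9 and 40.7 in the null and wild-type lists for the 12678 genes marked in both. At a score of at least 10 the order turned round, with 58 null-only and 45 wild-type-only genes. Some strong calls came from summits placed on either side of the window edge. H2-DMa, an MHC class II peptide loading gene, had a score of 49.9 in the null list only, yet a wild-type summit lay 1462 bp from the null one. Grin2a, an NMDA receptor subunit gene, had a score of 18.5 in the wild-type list only, with a null summit 54 bp away. Summits of the other list lay within 1 kb of the marking summit for 12 null-only and 9 wild-type-only genes, and beyond 5 kb for 162 and 227.

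Shared summits were paired to compare their order. Mutual nearest summits within 1 kb gave 20054 pairs with a median distance of 33 bp, and 62.2% of them were within 50 bp. Each summit was given its percentile rank by score among these pairs in its own list, where 100 is the highest. Spearman's rho between the ranks was 0.83, a description over summits that share libraries. The rank in null minus the rank in wild type had quartiles of −10.1 and 10.3 points around a median of 0.12. A difference of 20 points or more was found upward in null in 2173 pairs (10.8%) and downward in null in 2210 pairs (11%). Of the 2005 pairs that made up the highest 10% in null, 708 (35.3%) were also among the highest 10% in wild type.

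**Figure D2:**
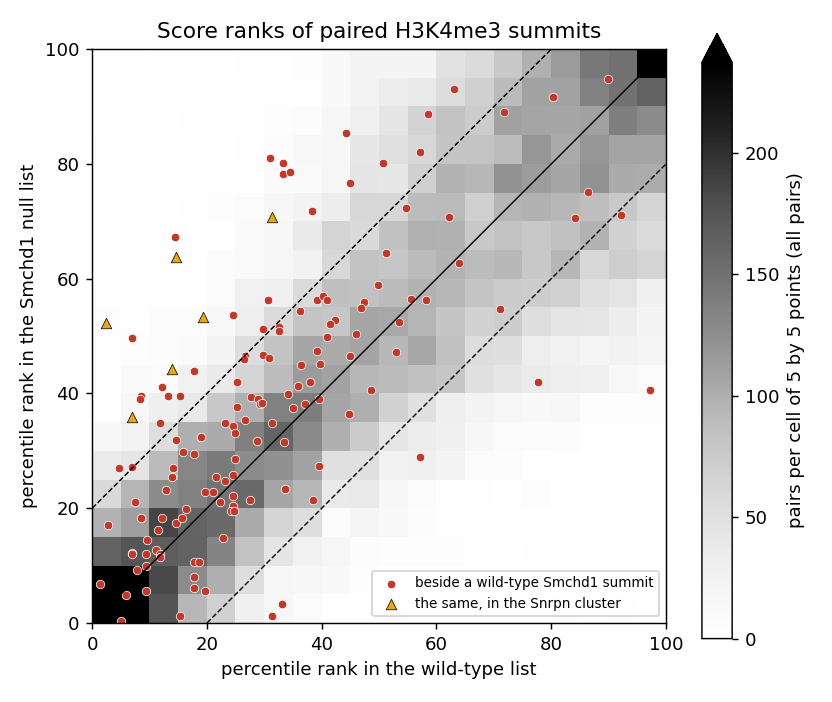
Percentile rank of paired H3K4me3 summits in the Smchd1 null list (vertical) against the wild-type list (horizontal), where grey cells count all 20054 pairs. Red points are the 138 pairs within 1 kb of a wild-type Smchd1 summit outside the Snrpn cluster and yellow triangles the 6 within it, and the dashed lines mark 20 points up or down. The triangles all lie above the upper dashed line, and 31 of the 144 marked pairs lie on or above it, against 6 on or below the lower line.

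The highest null summits were far above their wild-type partners in score. Scores here are not corrected for depth or for the longer upper tail of the null list. The top null score of 161 lay in the Gm10060 locus on chromosome 8, where the wild-type partner 3 bp away had 22.8. It was followed by Hjurp, which encodes the chaperone that deposits the centromeric histone CENP-A (118 in null, 50.2 in wild type), the centromere protein gene Cenpn (96.9 in null, 70.6 in wild type) and the kinetochore gene Nsl1 (95.5 in null, 47.7 in wild type). Then came Rpl23a, a ribosomal protein gene (94.99 in null, 54.0 in wild type), the Polycomb gene Pcgf1 (94.99 in null, 39.9 in wild type) and the Mediator subunit gene Med24 (93.2 in null, 51.7 in wild type). The highest wild-type summits, at the exosome subunit gene Exosc8 (66.6 in null, 80.6 in wild type), near Pum2 (68.3 in null, 80.6 in wild type) and at the succinate dehydrogenase gene Sdhd (48.9 in null, 79.3 in wild type), also had the lower score in the other list. Each of these named summits had the lower score in the list that did not choose it.

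The 15 largest rank gains at coding starts ran from 55.9 to 83.4 points and the 15 largest losses from 56.6 to 92.1 points. Where 1 promoter holds a pair of neighbouring summits, a change in which of them is the stronger also gives a large difference, so the highest score in the 2-kb window was ranked as well. The gain was at least 20 points by both measures at 12 of the 15 genes. These included Tarbp1, which encodes an RNA methyltransferase (67.0 in null, 18.5 in wild type, 67.1 points by pair), the translation initiation gene Eif3k (66.9 in null, 15.6 in wild type, 71.6 points) and Fnta, a farnesyltransferase subunit gene (62.1 in null, 18.8 in wild type, 64.5 points). The cationic amino acid transporter gene Slc7a1 (59.8 in null, 21.2 in wild type, 58.8 points) and the cyclin T2 gene Ccnt2 (75.5 in null, 26.5 in wild type, 55.9 points) were of this kind too. The neural transcription factor gene Sall3 had the largest gain by pair, 83.4 points, but 19.9 points by window.

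Losses of at least 20 points by both measures were found at 13 of the 15 genes. They included the mitochondrial carrier gene Slc25a26 (20.3 in null, 60.9 in wild type, −62.1 points by pair and −80.0 by window), the potassium channel gene Kcna2 (22.6 in null, 58.9 in wild type, −58.1 and −76.3 points) and the Polycomb gene Phc3 (22.7 in null, 58.8 in wild type, −57.5 and −75.6 points). The purine synthesis gene Atic had scores of 16.0 in null and 48.7 in wild type. Eps8, an actin regulator gene, had the largest loss by pair, −92.1 points, and −43.1 by window. At the histone chaperone gene Asf1a the difference was −60.4 points by pair and +11.3 points by window. Over all coding genes 1372 gained and 1486 lost at least 20 points by both measures, so changes of this size ran in both directions in similar numbers.

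Pairs beside Smchd1 binding ranked higher in null more often than lower. Of 144 pairs within 1 kb of a summit in the authors' wild-type Smchd1 list, 31 (21.5%, exact interval 15.1 to 29.1%) ranked at least 20 points higher in null and 6 (4.17%, 1.54 to 8.85%) at least 20 points lower. The 19910 other pairs gave 10.8% (10.3 to 11.2%) higher and 11.1% (10.6 to 11.5%) lower. The median difference was +8.32 points beside Smchd1 and +0.07 in the other pairs, and 107 of the 144 pairs (74.3%) were above 0, against 50.2% of the others. Without the 6 pairs of the Snrpn cluster, 18.1% were higher (12.1 to 25.6%) and 4.35% lower (1.61 to 9.22%). Pairs beside Smchd1 were weaker than average, with median scores of 22.6 in null and 16.5 in wild type, against 29.7 and 30.3 in the other pairs. Among pairs whose mean rank was below 50, 17.0% of those beside Smchd1 were higher (n = 112) and 2.68% lower, while all pairs of that range gave 5.97% and 6.45% (n = 9686). Among pairs with a mean rank of 50 or more, the shares beside Smchd1 were 37.5% and 9.38% (n = 32), and in all pairs 15.4% and 15.3% (n = 10368). The excess of higher over lower pairs was thus present in both ranges of rank.

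**Figure D3:**
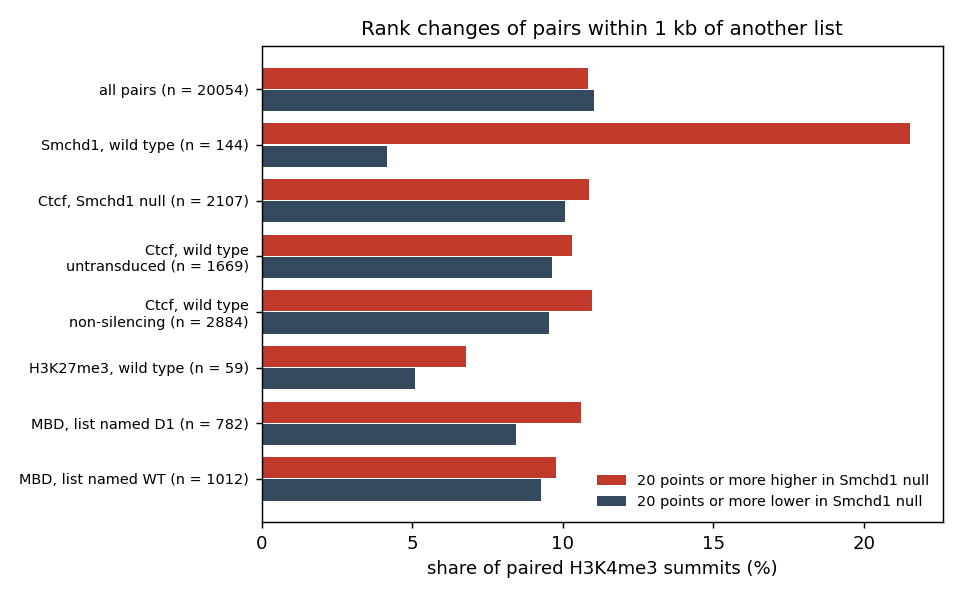
Share of paired H3K4me3 summits, in percent, that ranked 20 points or more higher (red) or lower (blue) in Smchd1 null than in wild type, for all pairs and for pairs within 1 kb of a summit of another list of the study (n is the number of pairs). Beside Smchd1 the shares were 21.5% higher and 4.17% lower, while for all pairs and for the Ctcf and MBD (methylated DNA capture) lists both shares lay between 8 and 12%.

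Genes at the pairs beside Smchd1 that differed by 20 points included neuronal and developmental ones and some that act in chromatin or on RNA. They were chosen after their values were seen. Tusc1 had the largest gain, 52.9 points (39.7 in null, 10.1 in wild type). Among genes of neurons was Otud7a, a deubiquitinase gene (48.3 in null, 18.8 in wild type, 49.9 points). The synaptic adhesion gene Lrfn2 (46.0 in null, 27.02 in wild type), the protocadherin gene Pcdh17 (42.7 in null, 23.1 in wild type), the neurofilament gene Nefm (22.6 in null, 7.63 in wild type) and the alpha-N-catenin gene Ctnna2 (22.8 in null, 9.46 in wild type) gained between 26.4 and 33.6 points. The stronger pair at the start of Nefm had 14.8 in null and 15.0 in wild type (1.34 points).

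Developmental regulators at these pairs were Tshz3 (46.7 in null, 20.7 in wild type, 44.0 points), Hoxa4 (25.6 in null, 11.3 in wild type, 26.3 points) and Mecom (20.1 in null, 9.08 in wild type, 23.0 points). The strongest of the 3 Mecom pairs beside Smchd1 ranked lower in null, with 15.5 in null and 24.2 in wild type (−12.1 points), and the remaining one differed by +4.80 points. Snai2, a neural crest transcription factor gene, lay just under the limit of 20 points with 27.7 in null and 16.1 in wild type (19.97 points). Lrif1, whose product binds Smchd1, had 51.6 in null and 26.8 in wild type (41.2 points), and the splicing factor gene Srsf10 had 46.5 in null and 20.2 in wild type (44.9 points) at one pair and 54.8 in null and 34.7 in wild type (30.3 points) at its stronger pair. The 6 pairs that ranked lower lay at LOC108167694 (23.5 in null, 59.8 in wild type), Cfap299 (24.2 in null, 44.6 in wild type), Utp3 (16.4 in null, 34.1 in wild type), Tchh (5.55 in null, 20.1 in wild type) and Zpbp2 (42.0 in null, 53.7 in wild type), and in an intergenic place whose nearest coding gene is Tmem174 (4.62 in null, 18.8 in wild type). Utp3 also had a stronger pair, with 57.1 in null and 45.8 in wild type (11.4 points).

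Unshared summits beside Smchd1 were few. Of unshared null summits, 17 (0.896%, interval 0.523 to 1.43%) lay within 1 kb of Smchd1, and of unshared wild-type summits, 6 (0.346%, 0.127 to 0.752%), intervals that overlap. Shared summits gave 0.726% in the null list and 0.695% in the wild-type list. The null ones included summits at Srrm4, Ralyl, Hoxa5 (11.7), Tbx3, a limb and mammary T-box factor gene (6.98 and 5.95), Irx2, an Iroquois homeobox gene (6.95, 5.89 and 4.08), Ptprr and A830018L16Rik, and farther from Sfmbt2, Brinp1, Begain, Gm51464, Rpl38 and Mat2b. The wild-type ones included summits at Amer3 (6.95) and the motor neuron factor gene Isl1 (5.95), beside LOC108167694 (23.1), and farther from Nr2f2 and Parp8. All 6 wild-type summits but the one beside LOC108167694 scored below 7.

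Beside Ctcf and methylated DNA, medians and shares were closer to those of all pairs than beside Smchd1. Pairs within 1 kb of Ctcf, the insulator protein, had median differences of +0.33 points with the Ctcf list of null cells (n = 2107), −0.34 with that of untransduced wild-type cells (n = 1669) and +0.15 with that of wild-type cells carrying a non-silencing hairpin (n = 2884). Pairs beside the 2 lists of methylated DNA captured on MBD2 beads had medians of −0.08 (n = 782, list named D1) and −0.02 points (n = 1012, list named WT). The labels of these MBD lists conflict with their names, so no genotype is given to them. Beside H3K27me3 of wild-type cells the median was +3.22 points, with 6.78% higher and 5.08% lower (n = 59). Beside H3K27me3 of null cells lay 3 pairs, with a median of +17.6 points and 1 of them at least 20 points higher. Unshared summits lay beside methylated DNA more often than shared ones: with the list named WT, 10.6% of unshared null summits and 11.2% of unshared wild-type summits, against 5.11% and 5.15% of the shared summits of the null and wild-type lists. H3K27me3 of wild-type cells lay beside 1.05% of unshared null summits and 0.866% of unshared wild-type summits, against 0.282% and 0.290% of shared ones. These shares depend on the distance allowed: at 250 bp the methylated DNA list named WT lay beside 2.16% of unshared null and 1.90% of unshared wild-type summits, at 5 kb beside 43.3% and 49.5%, and H3K27me3 at 250 bp beside 0.316% and 0.173%.

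The imprinted Snrpn cluster on chromosome 7 lay largely within the 5-Mb window with the highest median difference. Of 422 windows of 5 Mb with at least 15 pairs, the one from 60 to 65 Mb had the highest median rank difference, +16.2 points over 29 pairs, of which 11 were at least 20 points higher in null and 0 lower. The window also holds pairs outside the cluster, such as that at Otud7a. The next highest window had +8.23 points, the lowest −10.1 points, and 5% and 95% of the windows lay below −5.80 and 5.38 points. The cluster was singled out after these values were seen. Its genes are expressed from the paternal chromosome, apart from Ube3a, and the long transcript Snhg14 runs from upstream of Snrpn towards Ube3a.

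From Ube3a to Peg12, with 20 kb added on each side, the null list held 21 summits and the wild-type list 18. Of 15 pairs, 13 were above 0, 8 were at least 20 points higher in null and 0 were lower by that much, with a median of +29.0 points. At Peg12 the score was 64.9 in null and 30.2 in wild type (46.5 points, with the partners 815 bp apart). At Ndn it was 34.9 in null and 16.5 in wild type (30.9 points). Mkrn3, an imprinted ring finger gene, had 50.3 in null and 38.5 in wild type (17.8 points). The windows of Ndn and Peg12 printed above hold 11 and 12 CpGs, below the median of 13 for all windows.

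The 2 largest differences of the cluster lay upstream of Snrpn, and 4 pairs inside the long transcription unit ranked between 29.0 and 39.5 points higher in null. A pair 41931 bp upstream of the outermost annotated Snrpn start had 38.03 in null and 10.2 in wild type (49.1 points), and another, 172428 bp upstream of it, had 31.1 in null and 5.08 in wild type (49.8 points). A pair within Snhg14 had 42.0 in null and 18.8 in wild type (39.5 points). All 6 pairs of the cluster within 1 kb of a Smchd1 summit were in these 2 stretches and gained 29.0 points or more. At the Snrpn start itself the scores were 20.1 in null and 25.6 in wild type (−7.56 points), and at Ube3a the pair had 31.6 in each list (0.50 points). By the highest score of its window, Ube3a was lower in null, with 35.9 against 50.1 in wild type. Magel2 was marked in the wild-type list only, with a score of 6.55, and 4 weak null summits (4.79 to 9.27) between Snrpn and Ndn had no wild-type partner.

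**Figure D4:**
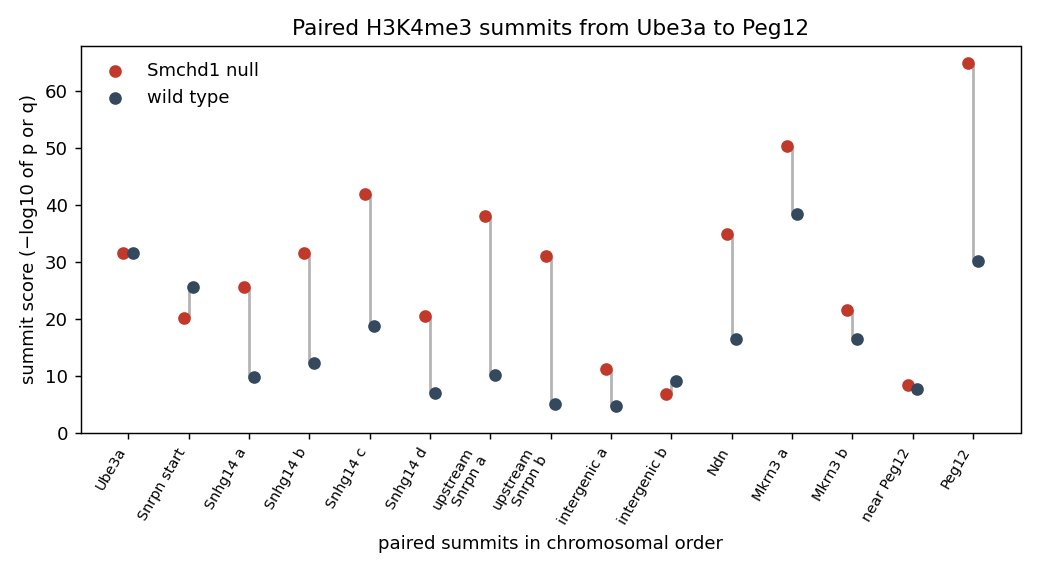
Scores of the 15 paired H3K4me3 summits from Ube3a to Peg12 on chromosome 7 (−log10 of p or q), in chromosomal order and evenly spaced, with red for Smchd1 null, blue for wild type and a line joining each pair. The letters a to d number neighbouring summits within the Snhg14 and Snrpn transcription unit, upstream of Snrpn, in intergenic sequence or at Mkrn3. The null score is the higher one at Peg12 (64.9 against 30.2) and Ndn (34.9 against 16.5), and the lower one at the Snrpn start (20.1 against 25.6).

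Imprinted genes over the genome differed in both directions. Of 59 imprinted genes, 39 were marked in both lists, and 18 in neither. Of these 39, 4 ranked at least 20 points higher and 1 lower, with a median of +2.24 points, against 12.4% higher, 13.5% lower and a median of −0.05 points at all 12656 coding genes with a pair at their start. The gains, besides Ndn, were at the Polycomb-related gene Sfmbt2 (26.9 in null, 5.91 in wild type), the receptor gene Igf2r (30.2 in null, 17.4 in wild type) and the exchange factor gene Rasgrf1 (16.4 in null, 6.68 in wild type). Peg12, which gained 46.5 points, was not a member of this list of 59 genes. The loss was at Tssc4 (30.1 in null, 43.1 in wild type). By the highest score of each window, ranked for coding genes only, 3 imprinted genes were at least 20 points higher and 2 lower. Peg3 had 24.2 in null and 20.7 in wild type by pair, and Plagl1 had 21.5 in null and 24.2 in wild type. H19, the maternally expressed long RNA gene, was marked in the null list only with a score of 5.95.

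Developmental transcription factors had more pairs that ranked higher than lower in null, but not by the window measure. Of 143 homeobox, T-box and related genes, 57 were marked in both lists, 9 in the null list only, 9 in the wild-type list only and 68 in neither. Among all 13119 coding genes marked in at least 1 list, 1.43% were null only and 1.93% wild type only. At the 57 with a pair, 9 ranked at least 20 points higher in null and 1 lower, with a median of +0.97 points. At all coding genes with a pair, 12.4% ranked higher and 13.5% lower, so the list differed mainly in its few losses. By the highest score of each window the counts were 3 higher and 2 lower, with a median of +0.41 points, while all coding genes gave 2234 higher and 2228 lower. These promoters were weakly marked, with a median score of 14.0 in null and 12.1 in wild type. Gbx2, a factor gene of the mid-hindbrain boundary, had 49.8 in null and 24.2 in wild type (43.0 points), and the neural factor genes Lhx4 (21.5 in null, 9.46 in wild type) and En1 (14.3 in null, 5.52 in wild type) gained 24.5 and 21.7 points. Dbx2 had 36.1 in null and 47.2 in wild type (−21.7 points). Marked in the null list only were Irx6 (10.5), the endoderm factor genes Foxa1 (8.10) and Gata6 (5.95), Tbx3, Irx2, Emx1 (6.98), Pax9 (5.47), Pax2 (4.86) and Foxe1 (4.08). At Emx1 a wild-type summit lay 2452 bp from the null one. Marked in the wild-type list only were Nkx1-2 (11.5, with a null summit 314 bp away), Alx4 (11.1), Sim1 (8.00), Dlx4 (6.55), Isl1, Sim2 (5.95), Pax6 (5.52), Tbx18 (5.27) and Sall4 (4.54). The numbers marked in a single list were the same for both genotypes.

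Of the 4 Hox clusters, HoxA held the marked genes. Of 11 HoxA genes, 2 were marked in both lists, 1 in the null list only and 8 in neither. Hoxa4 had 25.6 in null and 11.3 in wild type, and Hoxa5 had 11.7 in null with the nearest wild-type summit 11988 bp away. The 10 HoxB, 9 HoxC and 9 HoxD genes were marked in neither list. Hoxa4 and Hoxa5 each had a Smchd1 summit within 1 kb of their H3K4me3 summit.

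Genes of neurotransmitter receptors also had more pairs that ranked higher in null, and less unequal counts by the window measure. Of 102 such genes, 56 were marked in both lists, 4 in the null list only and 4 in the wild-type list only. For all coding genes marked in at least 1 list, the shares marked in a single list were 1.43% (null) and 1.93% (wild type). At the 56 with a pair, 10 ranked at least 20 points higher in null and 1 lower, with a median of +4.26 points, and 35 were above 0. At all coding genes with a pair, 12.4% ranked higher and 13.5% lower, so the list differed from these shares mainly in its few losses. By window the counts were 5 higher and 3 lower, with a median of +2.74 points, and the median scores of these genes were 20.3 in null and 17.6 in wild type. Grik5, a kainate receptor subunit gene, had 52.1 in null and 24.6 in wild type (45.3 points). The AMPA receptor gene Gria2 had 48.9 in null and 33.5 in wild type (25.5 points), the serotonin receptor gene Htr5b 16.4 in null and 4.79 in wild type (27.01 points), and the GABA-A receptor gene Gabra4 14.2 in null and 4.79 in wild type (22.9 points). By window the differences were 10.97 points at Htr5b and 8.58 points at Gabra4. The loss was at the adrenergic receptor gene Adra1a (5.47 in null, 16.6 in wild type). Null-only members included Htr2c and Gabrg3 (10.5 and 10.2) and Adra2c (4.15), and wild-type-only members were Grin2a, Htr6 (9.51), Gabre (7.63) and Htr4 (4.99). Of 89 voltage-gated channel genes with a pair, 5 gained and 4 lost 20 points.

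Markers of the cell types that a brain culture could hold gave small counts. Of 34 neuron genes, 23 were marked in both lists and 2 in the null list only, namely Srrm4 and Neurod1, a proneural factor gene (11.2, with a wild-type summit 2807 bp away). The 23 had a median of −2.69 points, with 1 gain and 0 losses by pair, but 0 gains and 2 losses by window. For comparison, 12.4% of all coding genes with a pair ranked at least 20 points higher in null and 13.5% lower. Of all coding genes marked in at least 1 list, 1.43% were marked in the null list only and 1.93% in the wild-type list only. Of 14 astrocyte genes 8 were marked in both, with a median of +9.44 points and gains at Acsl6, a fatty acid activation gene (41.8 in null, 22.5 in wild type), and Fgfr3 (50.7 in null, 32.8 in wild type), and with Gja1, the connexin 43 gene, at 37.2 in null and 28.0 in wild type. Of 16 oligodendrocyte genes 9 were marked in both, with a median of −5.92 points and no change of 20 points by pair. By window they had 0 gains and 2 losses. Olig1 had 46.7 in null and 57.4 in wild type, and the myelin regulator gene Myrf was marked in wild type only (9.32). Of 17 neural crest genes 9 were marked in both, with 2 gains, among them Zic1 (27.02 in null, 14.0 in wild type), and a loss at the endothelin receptor gene Ednrb (25.7 in null, 45.1 in wild type). Tfap2a was marked in the null list only (4.86), with a wild-type summit 2071 bp from the null one. Endothelial markers (5 of 14), mesenchymal ones (6 of 18) and epithelial ones (4 of 14) were mostly marked in neither list, with Tbx18 in the wild-type list only and Epcam (8.10) in the null list only. By window, astrocyte genes had 2 gains and 1 loss, and neural crest genes 1 gain and 1 loss. Whether the cultures differed in cell makeup was not tested.

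**Figure D5:**
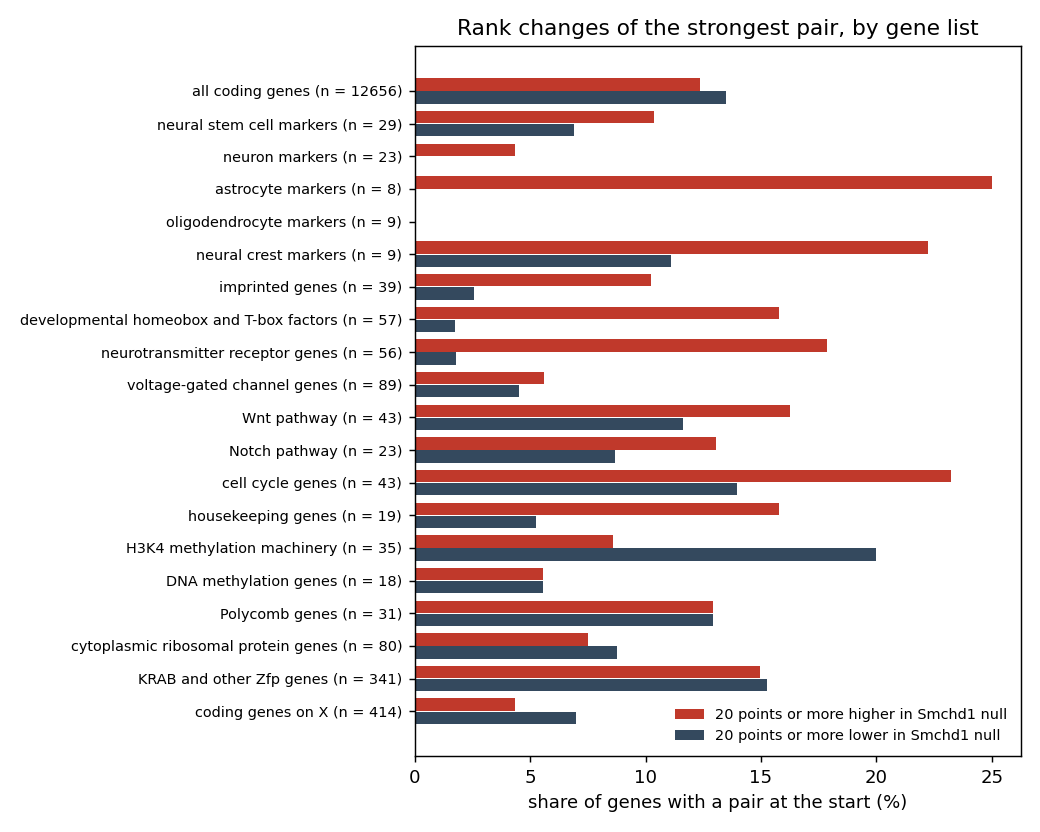
Share of genes, in percent, whose strongest H3K4me3 pair ranked 20 points or more higher (red) or lower (blue) in Smchd1 null than in wild type, for all coding genes with a pair and for gene lists (n is the number of genes with a pair). Developmental factors had 9 gains and 1 loss of 57 and neurotransmitter receptors 10 and 1 of 56 by this measure (3 and 2, and 5 and 3, by the highest score of each window), while Zfp genes had 51 and 52 of 341, close to the shares for all genes.

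Of the 29 neural stem cell genes with a pair, 3 gained and 2 lost at least 20 points, with a median of −2.49 points, and neither share was above that of all coding genes with a pair (12.4% higher, 13.5% lower). Nes had 51.7 in null and 27.7 in wild type (39.99 points), Msi2, an RNA-binding protein gene, 51.7 in null and 29.0 in wild type (37.97 points by pair, 3.90 by window), and the intermediate filament gene Vim 40.7 in null and 53.9 in wild type (−23.9 points). Sox2 had 38.5 in null and 32.6 in wild type. Emx1 was marked in the null list only, with a wild-type summit 2452 bp away. Pax6, a cortical patterning gene, was marked in the wild-type list only at the start tested, with a null summit 6019 bp away. By window the neural stem cell genes had 5 gains and 4 losses. Cell cycle genes had 10 gains and 6 losses of 43 by pair, and 11 and 9 by window. Cdc25a, a phosphatase gene that drives entry into S phase, had 63.8 in null and 28.6 in wild type (48.8 points), and the helicase subunit genes Mcm6 (58.2 in null, 27.6 in wild type) and Mcm3 (50.7 in null, 27.9 in wild type) gained 46.7 and 38.3 points. Aurkb, a mitotic kinase gene, had 37.0 in null and 61.5 in wild type (−35.7 points), and Cdk6 had 29.1 in null and 45.4 in wild type (−30.7 points).

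The genes that write, erase and read H3K4 methylation had 3 gains and 7 losses among 35 with a pair, with a median of −3.98 points, beside 12.4% higher and 13.5% lower at all coding genes with a pair. The gains were at Kmt2e (55.1 in null, 39.5 in wild type), Smyd3 (52.3 in null, 33.5 in wild type) and the demethylase gene Kdm2b (51.4 in null, 34.1 in wild type). The losses included the methyltransferase gene Kmt2a (38.03 in null, 51.6 in wild type), the menin gene Men1 (38.3 in null, 51.1 in wild type), the X-linked demethylase gene Kdm5c (26.6 in null, 41.3 in wild type) and the reader genes Ing2, Ing3 and Ing4. Of 18 DNA methylation genes, 4 were above 0 and the median was −5.14 points, with 1 gain at the glycosylase gene Mbd4 (49.1 in null, 29.3 in wild type) and 1 loss at Uhrf1 (36.1 in null, 47.2 in wild type). Polycomb genes had 4 gains and 4 losses of 31, cytoplasmic ribosomal protein genes 6 and 7 of 80, and respiratory chain genes 8 and 9 of 88. Housekeeping genes had 3 gains and 1 loss of 19, with Actb at 76.5 in null and 68.3 in wild type. By window the H3K4 methylation genes had 5 gains and 7 losses, DNA methylation genes 1 and 3, and housekeeping genes 4 and 0. Polycomb genes gave 4 and 6 by window, ribosomal protein genes 14 and 16, and respiratory chain genes 14 and 20. All 12678 coding genes marked in both lists gave 2234 and 2228.

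Signalling pathways and gene families are given beside the shares at all coding genes with a pair, 12.4% higher and 13.5% lower. Wnt pathway genes had 7 gains and 5 losses of 43 with a pair, with a median of +5.29 points. FGF and EGF pathway genes had 6 and 4 of 38, and BMP and TGF-beta pathway genes 5 and 5 of 41. Notch pathway genes had 3 and 2 of 23, and Hedgehog pathway genes 2 and 1 of 13. By window the counts were 5 and 6 for Wnt, 8 and 4 for FGF and EGF, and 5 and 7 for BMP and TGF-beta. Notch gave 6 and 2 and Hedgehog 4 and 2, while all 12678 coding genes marked in both lists gave 2234 and 2228. Members marked in the null list only were the Notch ligand gene Jag2 (5.95) and the BMP family gene Gdf7 (10.2). Members marked in the wild-type list only were Gdf15, a TGF-beta family cytokine gene (9.51), and the growth factor genes Fgf1 (12.3) and Fgf22 (7.63). Genes of SMC proteins and their partners had 5 gains and 4 losses of 34, and solute carriers 34 and 29 of 221. Proteasome genes had 8 and 6 of 48 and replication-dependent histone genes 6 and 5 of 57. Interferon response and MHC genes had 2 and 6 of 40. By window these lists gave 6 and 6, 41 and 43, 9 and 10, 8 and 6, and 4 and 5, in the same order. Of 375 solute carrier genes, 221 were marked in both lists, 1 in the null list only and 9 in the wild-type list only, led by Slc6a3. Of all coding genes marked in at least 1 list, 1.43% were marked in the null list only and 1.93% in the wild-type list only.

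Large receptor families were almost without marked genes in both genotypes. Of 1106 olfactory receptor genes 1 was marked, Olfr94 in the null list only (10.2), and of 353 vomeronasal receptor genes 1, Vmn2r29 in the wild-type list only (8.45). The 31 Rhox genes, a reproductive homeobox cluster on X, were marked in neither. Of 41 germ cell genes 6 were marked in both lists and 35 in neither. For tRNA genes, 245 of 408 were marked in both, 0 in the null list only and 6 in the wild-type list only. Of 12727 lncRNA genes 2217 were marked in both, 127 in the null list only and 158 in the wild-type list only. For comparison, 58.8% of all coding genes were marked in the null list and 59.1% in the wild-type list. Among coding genes marked in at least 1 list, 1.43% were null only and 1.93% wild type only.

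The X chromosome, present in a single copy in these male cells, had lower scores than autosomes in both lists. Its median was 14.3 in null and 16.1 in wild type, against autosomal medians of 22.6 to 27.9 in null and 24.3 to 30.7 in wild type. Of 669 X pairs, 3.29% (interval 2.07 to 4.94%) ranked at least 20 points higher in null and 6.28% (4.56 to 8.39%) lower. Their median difference was −0.46 points. Over all pairs, 10.8% ranked higher and 11% lower. The X pairs were weak, with median scores of 17.5 in null and 19.4 in wild type. All pairs with a mean rank below 50 gave 5.97% higher and 6.45% lower. The share of losses on X was close to that of such low-ranked pairs, and the share of gains was below it. Of 966 coding genes on X, 416 were marked in both lists, 13 in the null list only, led by Rtl8a, and 9 in the wild-type list only, led by Pabpc5. Genome-wide, 1.43% of coding genes marked in at least 1 list were null only and 1.93% wild type only. Xist, the RNA gene of X inactivation, was marked in neither list, and Jpx had 27.02 in each. Among autosomes the share of unshared summits ran from 6.01 to 11.3% in the null list, highest on chromosome 18, and from 5.46 to 10.1% in the wild-type list, highest on chromosome 1.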

How the data were processed

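H3K4me3 was measured by chromatin immunoprecipitation and sequencing. Per the submitters' processing notes, CASAVA 1.4 and MACS2 (version 2) were used with mm10. The read aligner was not stated there. The deposited lists give each summit's position and a score, −log10 of p or q as the authors' caller wrote it, for the 2 pooled libraries of a genotype. Depth per library is unknown, and GEO's labels do not say whether the 2 libraries came from separate animals.

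Summits were compared in Python (3.11.15) with scipy 1.17.1, pandas 2.3.3 and numpy 2.4.6. Plots were drawn with matplotlib 3.10.9. A summit was shared when the other list had one within 1 kb, and mutual nearest summits within 1 kb formed pairs. Gene starts came from RefSeq (GRCm38.p6), with strand for 17491 coding genes and either gene end for the others. Intervals are exact 95% Clopper-Pearson intervals. With 1 list per genotype no test between genotypes was possible. The steps were checked on simulated lists. Where a gene has several pairs at its start, the strongest was used, except among the largest differences and beside Smchd1, where each pair counts.

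Named genes were the 15 largest gains and losses of rank at coding starts, the 20 highest summits per list without a counterpart within 5 kb and with a coding start within 10 kb, members of gene lists marked in a single genotype, and the 10 highest summits per list. The comparison, the gene lists and the genes were chosen with earlier results of these data known. Some genes that meet these rules are not reported here.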

Additional observations from a re-analysis of the deposited data

Results flagged for a closer look

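Summits outside the assembled chromosomes, which the comparisons leave out, numbered 10 in the null list, on 5 unplaced sequences with a highest score of 116, and 7 in the wild-type list, on 4 sequences with a highest score of 37.7. They were picked out because a signal appeared in data outside the main measurement, and the difference between the lists was not tested.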

How the results depend on the processing

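Of 80 values recomputed under alternative settings, 47 stayed within 1.5 times the reported count or within its interval and 33 did not. Summits without a counterpart (1897 null, 1733 wild type) numbered 6297 null and 5551 wild type within 250 bp, 954 null and 1118 wild type within 5 kb, and 395 null and 299 wild type at a score of at least 10. With equal numbers of summits they numbered 1590 null and 1941 wild type, so the order of the lists turned round. Genes marked in a single list numbered 58 null and 45 wild type at a score of at least 10 (188 and 253 reported), and members of gene lists 21 null and 8 wild type (45 and 39 reported). With centred log2 scores in place of ranks, 700 pairs were higher in null and 888 lower. Of pairs beside Smchd1 with a score of at least 10 in both lists, 29.8% ranked higher in null and 4.81% lower. Over all pairs this setting gave 2641 higher and 2646 lower, against 2173 and 2210 reported. The other settings tried beside Smchd1, some chosen after seeing the data, gave 15.97 to 23.1% higher and 3.08 to 4.71% lower. Shares over all pairs also move with these settings and are not set beside them here. By gene windows the Snrpn cluster had 3 gains and 1 loss, against 8 and 0 by pairs. The windows cover coding starts only, so cluster pairs far from one, such as those 41931 and 172428 bp upstream of Snrpn, do not enter them. Developmental factors had 3 gains and 2 losses by windows (9 and 1 by pairs) and neurotransmitter receptors 5 and 3 (10 and 1 by pairs). Beyond this, the cause was not tested. No paired analysis was possible because the 2 libraries of each genotype were pooled before calling, and leaving out a replicate was not possible for the same reason. The depth of the lists is unknown.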

Other observations

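A stretch near the start of chromosome 12 around Gm5784, singled out after its values were seen, held 41 null and 26 wild-type summits. Of these, 16 null and 0 wild-type summits had no counterpart within 1 kb, and the highest score was 63.8 in null and 52.6 in wild type. Over all chromosomes, 7.84% of null and 7.39% of wild-type summits had no counterpart. Gm5784 itself, among the largest gains of rank at coding starts (51.5 in null, 10.3 in wild type), lies in this stretch, as do the null summits without a counterpart at Gm38699 (18.8) and 5730507C01Rik (16.98).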
